A study of Mus musculus with 5 samples.

Results

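The mitochondrial genome of the mouse was described across regulatory T (Treg) cell libraries through the genes whose symbol starts with mt-, 37 of the 38130 entries in each file. They comprise 13 protein genes, 2 rRNA genes and 22 tRNA genes, and the rule uses the symbol and no measured value. Treg cells are CD4 T cells that hold immune responses in check and depend on the transcription factor Foxp3. They had been sorted as CD4+YFP+ from C57BL/6 mice with a Foxp3-Cre-YFP reporter, so all groups carry the Cre and the fluorescent protein. The groups were wild type (WT) at 21 days and at 6 weeks (1 library each), Malt1 fl/fl with Malt1 deleted in Treg cells at 21 days (KO, 1 library), and Malt1 fl/C472A at 6 weeks, labelled as inhibited Malt1 protease activity in Treg cells (KI, 2 libraries). The Foxp3-driven Cre acts in Foxp3-expressing cells, and the labels do not say whether a library came from 1 animal or from several. Malt1 encodes a paracaspase that carries T cell receptor signals to NF-kB. Because the labels name no separate animals, p-values cover only library-to-library spread, which may be technical. That spread is estimated in part from other genes, as described below.

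Mitochondrial DNA is a small circle transcribed from both strands into long RNAs that are cut into separate products, largely at the tRNAs that lie between the other genes. The proteins it encodes are subunits of respiratory chain complexes I, III and IV and of ATP synthase, and the rRNAs and tRNAs serve the ribosome that makes these proteins inside the organelle. Treg cells are known for relying on mitochondrial respiration. In bulk samples, fewer cells of a type and less RNA per cell cannot be told apart.

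The libraries differed in ways that cross the groups. Estimated depth was 28.4 to 30.7 M fragments in WT at 21 days and both KI libraries, and 7.47 and 8.37 M in WT at 6 weeks and KO. The length that the FPKM calculation takes off a transcript, estimated from the bounds, was 198 to 312 nt in the 3 deep libraries and 144 and 140 nt in the 2 shallow ones. The 7 markers of Treg and T cells, Foxp3 and Cd3e among them, were at or above 1 scaled FPKM in every library. Foxp3 had 70.7 in WT at 21 days, 39.5 in WT at 6 weeks, 30.5 in KO, and 70.1 and 73.6 in KI, and Ctla4, Ikzf2 and Il2ra were likewise lower in WT at 6 weeks and KO than in the other libraries. Cd3e, Cd3g and Cd4 were higher in those libraries. The part of these Treg markers in the levels of mitochondrial mRNAs, which were also low there, was not tested. Scaled FPKM are the deposited FPKM (fragments per kilobase of transcript and per M mapped fragments) divided by a factor for each library. Malt1 was at 17.6 scaled FPKM in KO, between the 27.0 and 15.2 of the WT libraries, and at 55.9 and 37.8 in KI, so its level does not check the KO label. Summed markers of myeloid cells were 95.8 in WT at 6 weeks and 5.11 to 25.4 elsewhere, and those of plasmacytoid dendritic cells 94.1 and 19.6 to 36.1, and their part in the results below was not tested. Markers of B, NK, and erythroid and platelet cells were summed at 2.96 to 21.7, 20.1 to 75.8, and 1.68 to 45.6. The NK sum was highest in KO, where it was mostly Nkg7 at 73.8, with Klrb1c at 1.82 and Ncr1 at 0.194.

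WT at 21 days held the most mitochondrial mRNA, and WT at 6 weeks and KO the least. The 13 protein genes made up 10.3% of the summed FPKM of all protein-coding genes in WT at 21 days, 7.75% and 5.33% in KI replicates 1 and 2, 3.90% in WT at 6 weeks and 3.43% in KO. This share needs no scaling between libraries. WT at 21 days had the highest scaled FPKM for 12 of the 13 protein genes, the exception being mt-Atp8, and for both rRNAs. KO had the lowest for 8 protein genes, WT at 6 weeks for 4, and KI replicate 2 for mt-Nd6 and both rRNAs. All 3 deep libraries lay above both shallow ones for 10 of 13 protein genes, beside 23.6% of all tested genes in that direction, and for 0 of 2 rRNAs. Mt-Nd6, mt-Cytb and mt-Co3 were the protein genes that overlapped. The order of the 13 protein genes by FPKM differed in part between libraries, with mt-Atp8 at rank 6 in KI replicate 2 and rank 12 in KO. Mt-Co1 stood first in every library and took 31.4% to 34.0% of the summed FPKM of the 13 genes.

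**Figure D1:**
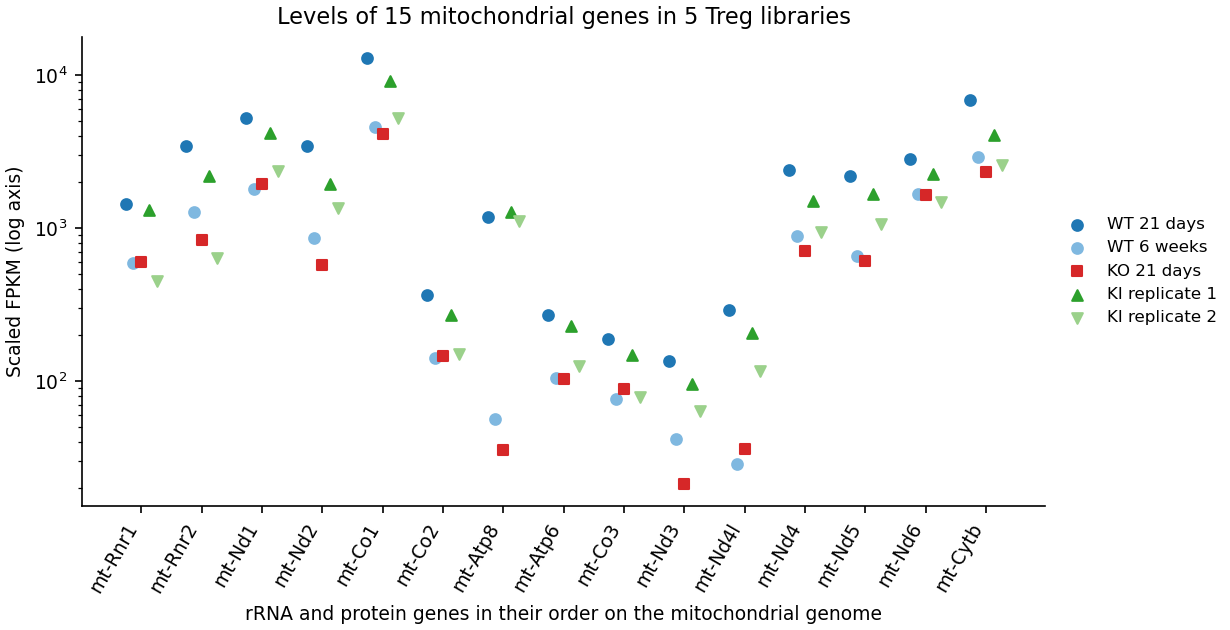
Scaled FPKM (log axis) of both rRNA and all 13 protein genes, in their order on the mitochondrial genome, with 1 point per library. WT at 21 days lies highest for every gene but mt-Atp8, and mt-Atp8 and mt-Nd4l have their widest gaps between libraries, with WT at 6 weeks and KO lowest.

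The rRNAs set the KI libraries apart from each other. Mt-Rnr1 (ENSMUSG00000064337, MT 70 to 1024), the RNA of the small mitochondrial ribosomal subunit, had 1438 scaled FPKM in WT at 21 days, 586 in WT at 6 weeks, 603 in KO, and 1307 and 452 in KI, or 880 ± 605 (SD, n = 2). Mt-Rnr2 (ENSMUSG00000064339, MT 1094 to 2675), the RNA of the large subunit, had 3410, 1263, 830, and 2173 and 639 in the same order, with a KI mean of 1406 ± 1085 (SD, n = 2). KI replicate 1 was thus near WT at 21 days for mt-Rnr1, while KI replicate 2 lay below every other library for both. The difference between the KI replicates was 1.53 for mt-Rnr1 and 1.76 for mt-Rnr2 in log2(scaled FPKM + 1), the scale of every difference here, on which differences of low genes come out too small. Both rRNAs were past 2-fold higher in replicate 1, as were 4.14% of all genes tested, beside 2.44% lower. Against WT at 6 weeks the KI mean lay at 0.39 for mt-Rnr1 and at -0.10 for mt-Rnr2, and neither difference was called by limma (adjusted p = 0.867 and 0.979). The sign of each turned with the replicate, at 1.16 and 0.78 in replicate 1 and at -0.37 and -0.98 in replicate 2. The proportion of the rRNAs to each other differed as well. The FPKM ratio of mt-Rnr2 to mt-Rnr1 was 2.37 in the younger WT and 2.16 in the older, and 1.38 in KO, 1.66 in KI replicate 1 and 1.41 in KI replicate 2. This ratio, 1 of several examined, was highest in the younger WT and lowest in KO, and it has no test here. Genotype, age and library cannot be told apart in it.

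Complex I, the NADH dehydrogenase, takes 7 of its subunits from mitochondrial DNA. Mt-Nd1 (MT 2751 to 3707) had 5194 scaled FPKM in WT at 21 days, 1803 in WT at 6 weeks, 1927 in KO, and 4178 and 2361 in KI. Mt-Nd2 (MT 3914 to 4951) had 3416, 862, 573, and 1932 and 1350 in that order. Both genes put the KI libraries between the WT libraries. Mt-Nd4 (MT 10167 to 11544) had 2374, 883, 711, and 1502 and 940. Mt-Nd5 (MT 11742 to 13565) had 2179, 657, 612, and 1662 and 1064. Mt-Nd4 and mt-Nd5, which code for proton-pumping subunits of the membrane arm, thus shared the order of mt-Nd2, with WT at 21 days first and KO last. Mt-Nd3 (MT 9459 to 9806) had 136, 42.0, 21.2, and 96.1 and 63.5. Its bounds in KO, 13.3 to 29.1, lay below those in WT at 6 weeks, 30.1 to 54.0. Mt-Nd4l (MT 9877 to 10173) had 293, 28.6, 35.8, and 207 and 116, a wider spread than that of mt-Nd4, with which it shares a transcript. The highest library was 10.2 times the lowest for mt-Nd4l and 3.34 times for mt-Nd4.

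Mt-Nd6 (ENSMUSG00000064368, MT 13552 to 14070) is the only protein gene of the 13 on the minus strand of the reference, and it varied least. It had 2836 scaled FPKM in WT at 21 days, 1656 in WT at 6 weeks, 1639 in KO, and 2255 and 1475 in KI, so the highest library was 1.92 times the lowest. For the other 12 protein genes that factor ran from 2.47 for mt-Co3 to 35.7 for mt-Atp8. Set against the geometric mean of 6 long genes on the other strand (mt-Nd1, mt-Nd2, mt-Nd4, mt-Nd5, mt-Co1 and mt-Cytb), the FPKM ratio of mt-Nd6 was 1.27 in KO, 1.09 in the older WT, 0.633 in the younger WT, and 0.749 and 0.788 in KI. Against this mean the minus-strand gene was lower in the 3 deep libraries and higher in the 2 shallow ones. Against its neighbours alone it kept its side, above mt-Nd5 in every library (ratios of 1.30 to 2.68) and below mt-Cytb in every library (0.416 to 0.709). The strand setting of the counting is not given in the sources used here, so antisense reads of the other strand cannot be separated from mt-Nd6, whose end overlaps mt-Nd5 by 14 nt.

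Complex III has a single mitochondrial gene, mt-Cytb, and complex IV, cytochrome c oxidase, has the catalytic core genes mt-Co1, mt-Co2 and mt-Co3. Mt-Cytb (ENSMUSG00000064370, MT 14145 to 15288) had 6811 scaled FPKM in WT at 21 days, 2903 in WT at 6 weeks, 2311 in KO, and 4030 and 2578 in KI. About 22639 fragments in KO to 174065 in WT at 21 days stood behind its values. KI replicate 2 lay below WT at 6 weeks for this gene, with bounds of 2559 to 2597 against 2867 to 2940. Mt-Co1 (ENSMUSG00000064351, MT 5328 to 6872) had 12875, 4587, 4088, and 9164 and 5220 in the same order of libraries. Mt-Co2 (MT 7013 to 7696) had 366, 141, 145, and 269 and 149, and mt-Co3 (MT 8607 to 9390) had 188, 76.0, 88.6, and 149 and 78.3. For mt-Co2 the bounds of WT at 6 weeks, KO and KI replicate 2 overlapped. The FPKM ratio of mt-Co1 to mt-Co2 lay between 28.2 and 35.1 in all libraries, a narrow range for levels so far apart.

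ATP synthase has mt-Atp8 and mt-Atp6, which overlap on the same strand and share 1 mRNA. The bases they share are shown because reads from them belong to both genes. The capitals mark the start codon of mt-Atp6 and, at the end, the stop codon of mt-Atp8 (MT:7927-7969, GRCm38, plus strand, GENCODE M21).
mt-Atp8 and mt-Atp6 overlap: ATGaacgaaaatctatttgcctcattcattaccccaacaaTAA
Mt-Atp8 (ENSMUSG00000064356, MT 7766 to 7969) had 1179 scaled FPKM in WT at 21 days, 56.8 in WT at 6 weeks, 35.7 in KO, and 1272 and 1114 in KI. Mt-Atp6 (ENSMUSG00000064357, MT 7927 to 8607) had 269, 104, 103, and 229 and 125 in that order. Mt-Atp8 was far above mt-Atp6 in the deep libraries and below it in the shallow ones, although they share an mRNA. The FPKM ratio of mt-Atp8 to mt-Atp6 was 0.347 in KO, 0.544 in the older WT, 4.38 in the younger WT, and 5.54 and 8.94 in KI. At 204 nt, mt-Atp8 is the shortest protein gene. That is near the estimated length that the FPKM calculation takes off in WT at 21 days (198 nt). It is below that estimate in KI replicates 1 and 2 (277 and 312 nt). About 351, 312 and 289 fragments stood behind it in WT at 21 days and KI replicates 1 and 2, and 17.1 and 13.1 in WT at 6 weeks and KO. Per M fragments of estimated depth that is 11.4, 11.0 and 10.1 against 2.28 and 1.56. The part of gene length, of depth and of nuclear copies, which are described below, in this difference was not tested.

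**Figure D2:**
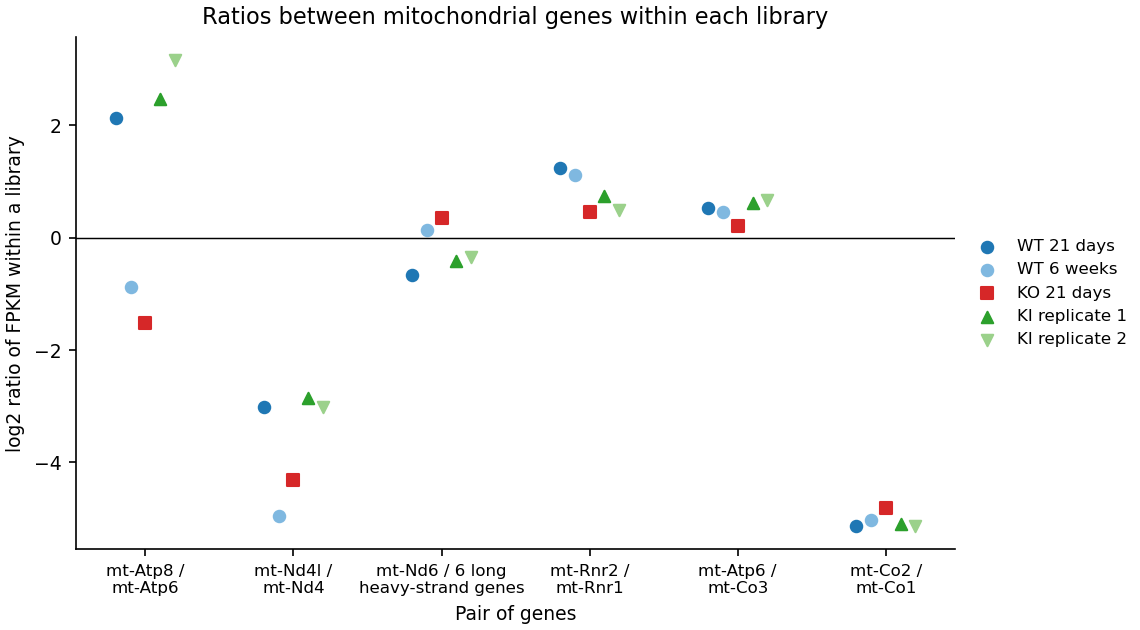
Ratios of FPKM between pairs of mitochondrial genes within each library, on a log2 axis, with 1 point per library. The ratios of mt-Atp8 to mt-Atp6 and mt-Nd4l to mt-Nd4 are lower, and that of mt-Nd6 to 6 long genes of the other strand higher, in WT at 6 weeks and KO than in the 3 other libraries, while mt-Co2 to mt-Co1 stays within 0.32.

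Nearly identical copies of mitochondrial genes lie in the nuclear genome, and reads from such stretches can be placed at either site. Matching of transcripts found a block on chromosome 1 (24611535 to 24616197, GRCm38, minus strand) with 7 pseudogenes of at least 99% identity. They cover 5 protein genes nearly whole: mt-Co2 (Gm28661), mt-Atp6 (Gm10925), mt-Co3 (Gm28437), mt-Nd3 (Gm28438) and mt-Nd4l (Gm10222). They also cover 31.3% of mt-Co1 (Gm29216) and 63.6% of mt-Nd4 (Gm28439). A stretch of mt-Co2 (MT:7457-7516, GRCm38, plus strand, GENCODE M21) is shown with the same stretch of its copies on chromosomes 1 and 2, to show how alike they are, with bases that differ from mt-Co2 in capitals.
mt-Co2: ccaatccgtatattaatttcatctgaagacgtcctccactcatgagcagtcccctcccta
Gm28661: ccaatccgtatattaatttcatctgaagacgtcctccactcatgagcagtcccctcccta
Gm13341: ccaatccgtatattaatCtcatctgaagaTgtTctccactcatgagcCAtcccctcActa
The copy on chromosome 1 has 0 differences from mt-Co2 here and 100% identity over 681 of 684 nt, and the copy on chromosome 2 has 6 here, in the window of 60 nt where it differs most. Of the genes with a nearly whole copy, all 5 were low, at 24.3 to 321 FPKM as deposited over the 5 libraries. Of the 6 protein genes with no such annotated copy, mt-Atp8 ranged from 40.8 to 1128 and the others from 657 (mt-Nd2 in KO) to 5968. Copies were sought among annotated transcripts alone. Mt-Atp8 lies between mt-Co2 and mt-Atp6, which both have copies in the block on chromosome 1. An unannotated copy of mt-Atp8 there was not sought. Mt-Co1 and mt-Nd4, with a copy of a part, ranged from 815 to 11282. How reads shared by a gene and its copy were placed is not given in the sources used here, and the part of the copies in these levels was not tested. Of the 7 pseudogenes on chromosome 1, Gm10222 alone has an entry in the data, so no level is known for the others.

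**Figure D3:**
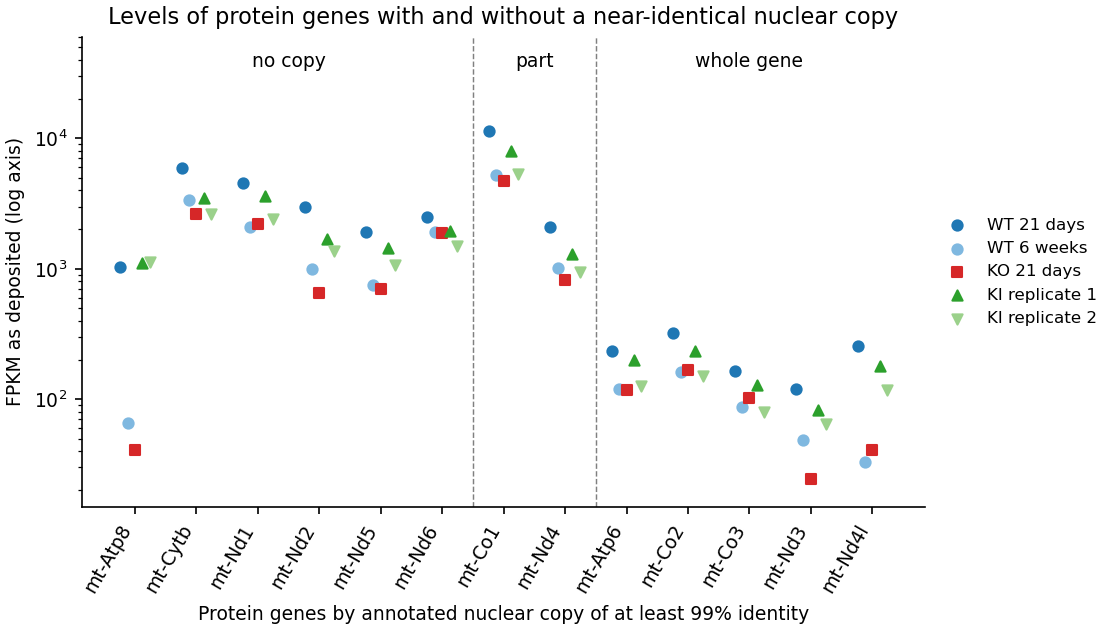
FPKM as deposited (log axis) of the 13 protein genes, grouped by the annotated nuclear copies of at least 99% identity (none, part of the gene, nearly the whole gene), with 1 point per library. The 5 genes with a nearly whole copy lie between 24.3 and 321 FPKM.

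The pseudogene Gm10222 (ENSMUSG00000067736, chromosome 1, 24612407 to 24612700 in GENCODE M21) carries the first 294 of the 297 bases of mt-Nd4l without a difference. The sequence of mt-Nd4l (MT:9877-10173, GRCm38, plus strand, GENCODE M21) is shown because reads from the shared bases could be placed at either entry, and its capitals mark the 7 bases shared with mt-Nd4.
mt-Nd4l: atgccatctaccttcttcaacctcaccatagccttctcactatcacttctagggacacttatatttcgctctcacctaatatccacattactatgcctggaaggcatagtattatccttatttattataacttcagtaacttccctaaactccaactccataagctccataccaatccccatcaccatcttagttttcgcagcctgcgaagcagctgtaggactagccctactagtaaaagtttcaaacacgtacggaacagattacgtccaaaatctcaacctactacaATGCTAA
Gm10222 had 1051 scaled FPKM in WT at 21 days, 15.6 in WT at 6 weeks, 15.7 in KO, and 683 and 416 in KI. Mt-Nd4l held 21.8% of the sum of both entries in the younger WT and 23.3% and 21.8% in the KI replicates, but 64.7% in WT at 6 weeks and 69.6% in KO. This proportion thus differed between the deep and the shallow libraries, and the part of depth in it was not tested. Summed, the entries had 1344, 44.2, 51.5, and 891 and 532 scaled FPKM, which spread further than mt-Nd4l alone. Of the copies on chromosome 2, the match of mt-Co1, Gm13340, had 15.6, 2.66, 3.37, and 9.0 and 3.96 scaled FPKM in the same order of libraries. Gm13341, the match of mt-Co2, had 5.08, 0.414, 0.536, and 2.92 and 2.30, and Gm13339, the match of part of mt-Nd2, had 2.5, 0, 0, and 1.52 and 1.30. WT at 21 days was the highest library for each of these 4 copies, as it was for the genes they match.

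The tRNA genes, 59 to 75 nt long, were almost all listed at 0. In all 5 libraries 19 of the 22 had 0 FPKM, and 3 were above 0 in at least 1 library, mt-Tp, mt-Tc and mt-Ts1, the tRNAs for proline, cysteine and 1 of the serine codon groups. Their sequences are shown because FPKM weigh a single read of so short a gene heavily, with the anticodon, found as the middle of the loop of the best-paired central stem, in capitals (GENCODE M21, GRCm38, all 3 on the minus strand; MT:15356-15422, MT:5192-5257 and MT:6870-6938).
mt-Tp: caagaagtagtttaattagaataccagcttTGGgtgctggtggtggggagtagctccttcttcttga
mt-Tc: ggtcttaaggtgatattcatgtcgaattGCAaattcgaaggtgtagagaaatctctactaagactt
mt-Ts1: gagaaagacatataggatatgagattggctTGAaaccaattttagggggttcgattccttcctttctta
Mt-Tp had 7832 scaled FPKM in WT at 6 weeks and 11544 in KO, and was listed at 0 in WT at 21 days and both KI libraries. Mt-Tc had 4550 in KO alone, and mt-Ts1 had 14585 in KI replicate 2 alone. Each of these values lay above every protein gene of its library, but the bounds, whose lower end is 0 in each case, put about 1.0 fragment behind mt-Tp in WT at 6 weeks, 3.0 in KO, 1.0 behind mt-Tc and 0.5 behind mt-Ts1. A single fragment of mt-Tp was worth 9003 FPKM in WT at 6 weeks, while one of mt-Cytb was worth 0.132 FPKM there. Mt-Tp was the gene that limma called in KI against WT at 6 weeks, 1 of 11296 (0.00885%), with a difference of -12.94 (SE 0.231, adjusted p = 0.0431), lower in 2 of 2 KI libraries. As mt-Tp is listed at 0 in both KI libraries, this SE comes from the variance that limma borrows from other genes. The call rests on about 1.0 fragment in 1 library. It was lost without the filter on low values (limma adjusted p = 0.142) and with both WT libraries as control (0.930), and the other alternatives gave 0.0136 to 0.0455. As the 3 tRNA genes passed the filter through the 1 or 2 libraries in which they were above 0, they had to differ, and no count over them is read as support.

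**Figure D4:**
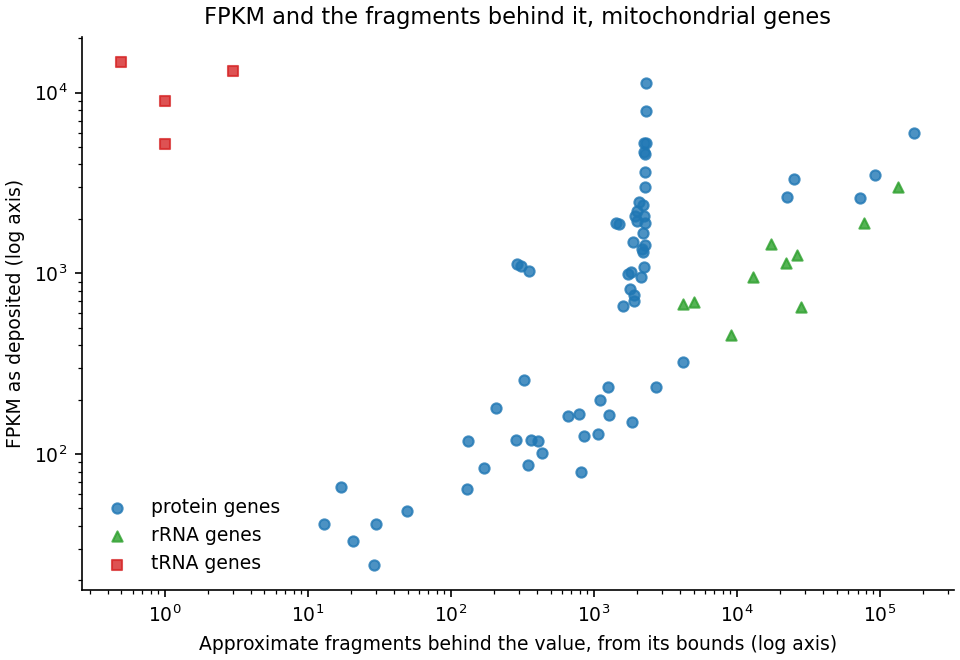
FPKM as deposited against the approximate number of fragments behind each value, on log axes, with 1 point per gene above 0 and library. For mt-Nd1, mt-Nd2, mt-Co1, mt-Nd4, mt-Nd5 and mt-Nd6 that number, 1436 to 2341, is no measure of the reads counted. The 4 tRNA values lie between 5210 and 14773 FPKM on 0.5 to 3.0 fragments, while every mt-Cytb and rRNA value rests on 4229 fragments or more.

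In KI at 6 weeks against WT of that age, none of the 13 protein genes was called by limma. The fit had 1 residual degree of freedom, that between the KI replicates. Limma draws the variance of each gene toward a trend over all genes tested. Its SE and p-values are thus no measure of the spread of that gene between the KI replicates alone. The lowest adjusted p among them was 0.156, for mt-Atp8 at 4.37 (SE 0.349). It was followed by mt-Nd4l at 2.40 (SE 0.449, adjusted p = 0.393). By size, these were the 2 genes past 2-fold higher in both KI libraries, beside 3.01% of all genes, and 0 were past 2-fold lower, beside 2.8%. Of all genes 1211 had an unadjusted p under 0.05, these 2 among them. Both short genes were also higher in WT at 21 days than in WT at 6 weeks. Mt-Nd5 lay at 1.02 (SE 0.585), mt-Nd2 at 0.91 (SE 0.610), mt-Nd3 at 0.88 (SE 0.349) and mt-Nd1 at 0.80 (SE 0.894). The smallest differences were those of mt-Cytb at 0.15 (SE 0.938) and mt-Nd6 at 0.14 (SE 0.713), which turn to -0.14 and -0.15 with FPKM as deposited. In KI replicate 1 all 13 protein genes lay above WT at 6 weeks, 7 of them past 2-fold, beside 7.99% of all genes higher in that library. In replicate 2 mt-Cytb and mt-Nd6 lay below it, at -0.17 each, and 2 were past 2-fold higher, beside 6.1%. The gap between the KI replicates was 0.68 in the median, with all 13 protein genes higher in replicate 1, and 0 of them past 2-fold. Their bounds did not overlap for 12, beside 47.7% of all genes tested. For mt-Nd1, mt-Nd2, mt-Co1, mt-Nd4, mt-Nd5 and mt-Nd6 the bounds are no measure of the reads counted, as described below. The median over all genes tested was -0.0045 for KI against WT at 6 weeks and -0.0035 between the KI replicates. Among protein-coding genes alone limma called mt-Atp8 (adjusted p = 0.0281), while its other alternatives gave 0.0745 to 0.930.

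Against WT at 21 days, which is closer to KI in depth but has the other age, 12 of the 13 protein genes were lower in both KI libraries, and 0 were called by limma (adjusted p = 1 for each). Of all genes tested 0% were called there, and 240 had an unadjusted p under 0.05, with 0 of the 13 among them. The exception was mt-Atp8, at 0.11 and -0.082 in the KI replicates. No protein gene was past 2-fold in both KI libraries, beside 0.398% of all genes higher and 0.788% lower. Replicate 2 alone had 11 protein genes past 2-fold lower, all but mt-Nd6 and mt-Atp8, beside 3.47% of all genes in that library. Replicate 1 had 0, beside 1.81%. The mean differences ran from -1.08 for mt-Nd2 and mt-Cytb to -0.64 for mt-Nd6, beside mt-Atp8 at 0.014. The direction of the mitochondrial mRNAs in KI thus turned with the WT library it was set against, and age and library cannot be told apart.

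**Figure D5:**
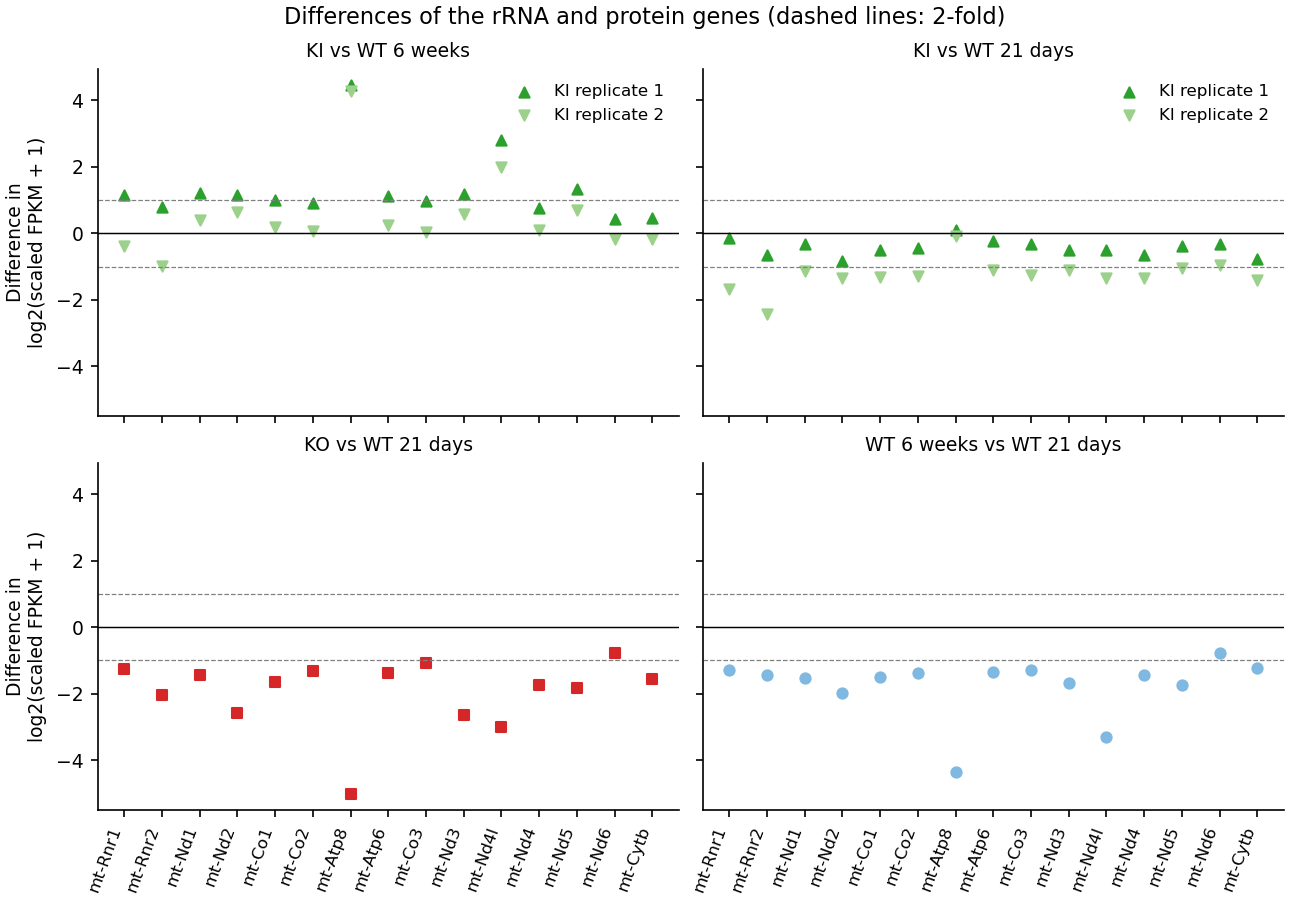
Differences in log2(scaled FPKM + 1) of both rRNA and all 13 protein genes in 4 comparisons, with dashed lines at 2-fold and 1 point per library (triangles for the KI replicates). KI lies mostly above WT at 6 weeks and below WT at 21 days, and KO and WT at 6 weeks lie below WT at 21 days for every gene.

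In KO at 21 days all 13 protein genes were lower than in WT of that age, with a median of -1.65 beside 0.016 over all genes tested. Of these, 12 were past 2-fold lower, beside 8.14% of all genes lower and 6.13% higher, and mt-Nd6 lay at -0.79. The largest differences were those of mt-Atp8 at -5.01, mt-Nd4l at -3.0, mt-Nd3 at -2.63 and mt-Nd2 at -2.57, and the smallest past 2-fold was that of mt-Co3 at -1.07. Both rRNAs were lower as well, mt-Rnr1 at -1.25 and mt-Rnr2 at -2.04. The bounds did not overlap for any of the 13 protein genes or the 2 rRNAs, beside 51.7% of all genes tested, and they leave out any error between libraries, and with 1 library per group there is no replicate check. For mt-Nd1, mt-Nd2, mt-Co1, mt-Nd4, mt-Nd5 and mt-Nd6 they match 1436 to 2341 fragments in every library whatever its depth, so for these genes the bounds are no measure of the reads counted. Against WT at 6 weeks, which is close to KO in depth, the median was -0.10 beside -0.010 over all genes, and 0 of 13 protein genes were past 2-fold in either direction, beside 3.3% of all genes higher and 2.29% lower. The largest differences there were those of mt-Nd3 at -0.95, mt-Atp8 at -0.66 and mt-Nd2 at -0.59, and mt-Rnr2 lay at -0.60. The bounds of KO and WT at 6 weeks did not overlap for 5 of 13 protein genes, beside 22.1% of all genes tested.

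The WT libraries, which share the genotype, were nearly as far apart as KO and WT at 21 days. All 13 protein genes were lower at 6 weeks than at 21 days, with a median of -1.49 beside 0.010 over all genes, and 12 were past 2-fold, beside 5.18% of all genes lower and 3.38% higher. Mt-Nd6 at -0.78 was the one that was not. Mt-Atp8 lay at -4.35, mt-Nd4l at -3.31 and mt-Nd2 at -1.99, and the rRNAs at -1.29 and -1.43. This comparison and that of KO share the WT library at 21 days, which was the highest for nearly all members, so a high value in that library lowers both.

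Nuclear genes that maintain and express mitochondrial DNA are given by the median of each list. In KO and in WT at 6 weeks against WT at 21 days every list had a median nearer 0 than the protein genes had. In KI against WT at 6 weeks this held for replicate 1 and not for replicate 2, where the protein genes had a median of 0.25, the upkeep genes -0.27 and the mitochondrial ribosome -0.41. Of 19 genes for upkeep and transcription of mitochondrial DNA, 19 were tested, with a median of -0.36 in KI against the older WT. Past 2-fold there were 0 of them, beside 3.01% of all genes higher and 2.8% lower. Their medians against WT at 21 days were 0.30 in KO and 0.46 in WT at 6 weeks. Tfam, which packages mitochondrial DNA and starts its transcription, had 20.5 scaled FPKM in WT at 21 days, 24.9 in WT at 6 weeks, 25.5 in KO, and 18 and 20.4 in KI. Polrmt, the mitochondrial RNA polymerase, had 6.22, 7.99, 10.9, and 7.6 and 4.58. Both were lower in WT at 21 days than in WT at 6 weeks and KO. Of the 19 genes, 17 were higher and 2 lower in WT at 6 weeks than in WT at 21 days. In KO 14 were higher and 5 lower than in WT at 21 days. Tfb2m and Polg2 were lower in both, as the mitochondrial mRNAs were. Tfb2m had 7.57, 5.05, 5.91, and 9.39 and 6.49 scaled FPKM in the same order of libraries. Polg2 had 11.6, 5.52, 5.97, and 14.3 and 5.81. The part of these genes in the levels of mitochondrial mRNAs was not tested. The 18 genes for RNA processing, stability and decay had a median of -0.06 in KI against the older WT. Against WT at 21 days they had 0.12 in KO and 0.01 in WT at 6 weeks. In each of these 3 comparisons 0 were past 2-fold, beside 2.8% to 8.14% of all genes per direction. Lrpprc, which stabilises mitochondrial mRNAs, had 10.6, 8.42, 9.17, and 9.87 and 9.0. Of 6 regulators, among them the coactivator Ppargc1b, 5 were tested and 0 were past 2-fold in any of the 3 comparisons. In lists this short, 0 past 2-fold is not read as a result. Genes of the mitochondrial ribosome, 77 tested of 78, had a median of -0.47 in KI against WT at 6 weeks, with 2 past 2-fold lower, Mrps5 at -1.16 and Mrps24 at -1.05, near the 2.8% of all genes. In KO against WT at 21 days their median was 0.43 with 7 past 2-fold higher, beside 6.13% of all genes. In WT at 6 weeks against 21 days it was 0.37 with 1 past 2-fold higher, beside 3.38%, which was Mrpl51 at 1.07, named after its value was seen. No gene of these lists was called by limma in KI.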

How the data were processed

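Total RNA of sorted CD4+YFP+ cells was sequenced in 5 libraries. Per the file headers, the authors deposited FPKM for each gene with 2 bounds. Per the submitters' processing notes these FPKM come from HISAT2 2.1.0, Cufflinks 2.2.1 and CASAVA on GRCm38. The sources used here do not give the annotation release, the strand setting or how multiply mapped reads were treated.

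To scale libraries, a median-of-ratios factor was taken over 9874 genes with FPKM of at least 1 everywhere. The 11296 genes whose scaled FPKM averaged 1 or more were fitted as log2(scaled FPKM + 1) in limma 3.58.1 under R 4.3.3 (trended variance, two-sided, Benjamini-Hochberg over all of them, threshold 0.05). That step was checked on simulated data with normal noise around the gene means. The simulation held no genes listed at 0, so it does not cover a call such as that of mt-Tp. Fragments behind a value were taken as (FPKM/SE) squared, with the bounds read as 2 SE. Nuclear copies were found with blastn 2.17.0 (identity of at least 90%) between GENCODE M21 transcripts. IDs and coordinates of all 37 members matched that release and are counted from 1. Anticodons were placed in the loop of the best-paired central stem. All protein and rRNA genes, each tRNA gene above 0, and listed nuclear genes past 2-fold from the older WT in each KI library, or from each WT library in KO, are named. Tfam, Polrmt, Lrpprc and Ppargc1b were named outside this rule for their known roles. Tfb2m and Polg2 were named outside it after their values were seen. The members and lists were chosen with earlier results of these data known. Alternatives were the scaling, pseudocount, filter, genes and groups fitted, control, and leaving out a KI library.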

Additional observations from a re-analysis of the deposited data

How the results depend on the processing

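No paired analysis was possible because WT and KO have 1 library per age and only KI has 2. With both WT libraries as control, the KI median of the protein genes was -0.087, 1 was past 2-fold higher, 1 gene of all was called and 0 tRNA genes. Single genes then lay at -0.087 (mt-Nd2), -0.29 (mt-Nd4), -0.25 (mt-Nd6), -0.46 (mt-Cytb), -0.15 (mt-Co1), -0.18 (mt-Co2), -0.14 (mt-Co3) and -0.26 (mt-Rnr1), the reverse of their sign against WT at 6 weeks, and at 0.037 (mt-Nd1), 0.042 (mt-Nd3), 0.74 (mt-Nd4l), 0.15 (mt-Nd5) and 0.011 (mt-Atp6), the reverse of that against WT at 21 days. With FPKM as deposited mt-Nd6 lay at -0.15 and mt-Cytb at -0.14 against WT at 6 weeks, the median of all genes moved to -0.26, and limma called 2 genes. The medians were then -1.27 (protein) and -1.26 (rRNA, 1 past 2-fold) in KO, and -1.10 and -0.97 (1 past 2-fold) in WT at 6 weeks, against WT at 21 days. With the factor from long nuclear genes the rRNA medians there were -1.58 and -1.32, and mt-Atp8 in KI against WT at 21 days lay at -0.0026. Against WT at 6 weeks limma called 50 genes with a pseudocount of 0.1, 0 without the filter (0 tRNA genes) and 15 among protein-coding genes, 1 of them mitochondrial; against WT at 21 days it called 26 with a pseudocount of 0.1 and 1 with both WT libraries. Leaving out 1 KI library gave 2 to 7 protein genes past 2-fold higher and 0 to 1 rRNA against WT at 6 weeks, and 0 to 11 protein genes lower against WT at 21 days. Against WT at 6 weeks mt-Nd6 and mt-Cytb ranged from -0.17 to 0.45 and 0.47, mt-Rnr1 from -0.37 to 1.16 and mt-Rnr2 from -0.98 to 0.78, and against WT at 21 days mt-Atp8 from -0.082 to 0.11. The causes were not tested, beyond the smaller sets of genes and samples that these choices make. The fewest fragments stood behind mt-Atp8, mt-Nd4l and mt-Nd3 in the shallow libraries and behind the tRNA genes above 0, so these values are the least precise.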
